A study of Mus musculus with 80 samples.

Results

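The transcripts of succinate dehydrogenase and of enzymes that feed and turn the Krebs cycle were followed in the kidneys of 40 C57BL/6 mice. The set held 8 genes: the 4 succinate dehydrogenase subunits, Pdha1 and Dlat of the pyruvate dehydrogenase complex, Idh3b of isocitrate dehydrogenase, and Suclg1 of succinate-CoA ligase. Every spotted cDNA clone that the platform table assigns to exactly 1 of these symbols was taken, which gave 12 of 16896 clones and 8 of 7151 named genes. The set was selected on measured values of these same kidneys: the differences between 169 to 194 and 17 to 44 days and between 704 to 743 and 169 to 194 days were in view when it was drawn up. Those 2 differences are therefore given as a description, without a test. Tests were kept for what the choice did not use: the sexes, the age group of 476 to 499 days against the other ages, a sex difference that varies with age, and agreement between clones across mice once the sex and age group means were subtracted.

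The mice were males and females of an inbred strain, all fed regular chow without restriction until they were killed, with no other treatment named. Mice were 17 to 44 days old, 169 to 194 days, 476 to 499 days or 704 to 743 days, with 5 of each sex at each of these 4 ages. In the youngest group 5 mice were 17 to 21 days old, around weaning age, and the other 5 were 33 to 44 days old. The older of these were slightly more often male and the younger slightly more often female. Sex and age are thus partly mixed in that group, and a male and a female compared within it can differ in age. Total kidney RNA was copied into radioactively labelled cDNA and hybridised to 2 nylon filters per mouse, set A and set B, which carry different clones, 8448 on each. Values are in array SDs: the distance of a spot from the mean of its filter, in units of the spread of all spots on that filter. The scale before this step is not given in the sources used here, so no fold is given. Levels are compared within a clone only. Whole kidney was measured, so fewer cells of a type and less RNA per cell cannot be told apart.

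Pyruvate dehydrogenase converts pyruvate to acetyl-CoA inside mitochondria, and the Krebs cycle then oxidises the acetyl group and loads electrons onto carriers. Succinate dehydrogenase belongs to the cycle and to the respiratory chain at once: as complex II it oxidises succinate to fumarate and passes the electrons to ubiquinone. The kidney spends most of its energy on reabsorbing sodium and solutes, and the proximal tubule, which makes little use of glycolysis, is packed with mitochondria.

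The promoters of the succinate dehydrogenase subunits are shown because these genes are read together below. Entries of the RefSeq promoter table, build GRCm38.p6, matched 7 of the 8 genes, all but Sdhc. The 250 bases upstream of the annotated start were searched on both strands for the letters GCANGCGC (the core of the NRF1 motif, a regulator of nuclear genes for mitochondrial proteins), CCGGAAG (an ETS core, the family of GABPA) and AAGGTCA (the core bound by estrogen-related receptors). Of 32851 promoters, 7.86%, 6.91% and 4.08% held these letters. Sdha lies on the minus strand with this window at chr13:74350241-74350490, Sdhb on the plus strand at chr4:140961021-140961270 and Sdhd on the minus strand at chr9:50603850-50604099. They are written below in the direction of transcription, with each match in capitals.
Sdha: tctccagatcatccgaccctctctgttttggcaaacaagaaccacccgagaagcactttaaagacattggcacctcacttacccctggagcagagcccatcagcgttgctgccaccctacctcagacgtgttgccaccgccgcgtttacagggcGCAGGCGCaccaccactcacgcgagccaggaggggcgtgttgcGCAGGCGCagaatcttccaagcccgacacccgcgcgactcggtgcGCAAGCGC
Sdhb: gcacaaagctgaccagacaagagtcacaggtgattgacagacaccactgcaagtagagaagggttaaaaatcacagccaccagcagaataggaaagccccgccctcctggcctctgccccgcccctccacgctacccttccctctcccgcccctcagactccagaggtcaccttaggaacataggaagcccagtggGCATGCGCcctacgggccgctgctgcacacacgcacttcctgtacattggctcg
Sdhd: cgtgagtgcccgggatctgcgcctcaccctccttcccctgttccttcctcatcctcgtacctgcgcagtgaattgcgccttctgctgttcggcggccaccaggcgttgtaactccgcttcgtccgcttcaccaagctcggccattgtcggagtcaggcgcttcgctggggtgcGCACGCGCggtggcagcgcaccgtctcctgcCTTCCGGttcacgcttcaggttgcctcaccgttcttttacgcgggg
The Sdha window held 3 matches to the NRF1 letters, which began 96, 53 and 8 bases upstream of the start. Sdhb held 1, beginning 54 bases upstream. Sdhd held 1 that began 77 bases upstream and 1 ETS match that began 46 bases upstream. Pdha1 held 1 NRF1 match 169 bases upstream, and the windows of Idh3b, Dlat and Suclg1 held none of the 3 sets of letters. No ERR letters were found in any of the 7 windows. No values of factor binding were measured here.

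The filters carried few markers of kidney cells. Of 12 proximal tubule markers, 3 were named on the filters (Lrp2, Cubn and Miox), and their 4 clones lay between the 71.4 and 94.1 percentile of brightness of their set. Slc34a1, a defining transporter of that segment, was not among the named clones. The filters of each set resembled each other, with a mean correlation of a filter with the others of 0.891 to 0.965 in set A and 0.916 to 0.976 in set B. The filters of 5 mice stood apart on this measure.

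Position in the deposited order of spots moved with the values, and this touches every result below. After the mean of each round of arrays was subtracted, clones next to each other in that order correlated across the 40 mice. Their mean r was 0.482 in set A and 0.521 in set B. A round is a run of 8 serial numbers with 1 mouse of each sex and age group, inferred from the titles. The correlation returned at 22 spots (0.496 and 0.566) and at 528 spots (0.408 and 0.480), and at 300 spots it was 0.0217 and -0.0652. Over the longer distances examined, from 300 spots up, its median was 0.0880 and 0.0907. The 12 clones shared this pattern: their mean r with the spots around them lay between 0.114 (Dlat, spot 10484) and 0.663 (Pdha1, spot 8201), against -0.00468 to 0.0112 with the rest of their set. A second set of values was therefore computed, an alternative chosen after seeing the data. From each clone the median deviation of the up to 24 spots around it was subtracted, on a grid of rows of 22 in blocks of 528. The physical layout of the filters is not given in the sources used here. The grid was inferred from the distances at which the correlation returned. The resulting values are called locally adjusted values below.

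**Figure D1:**
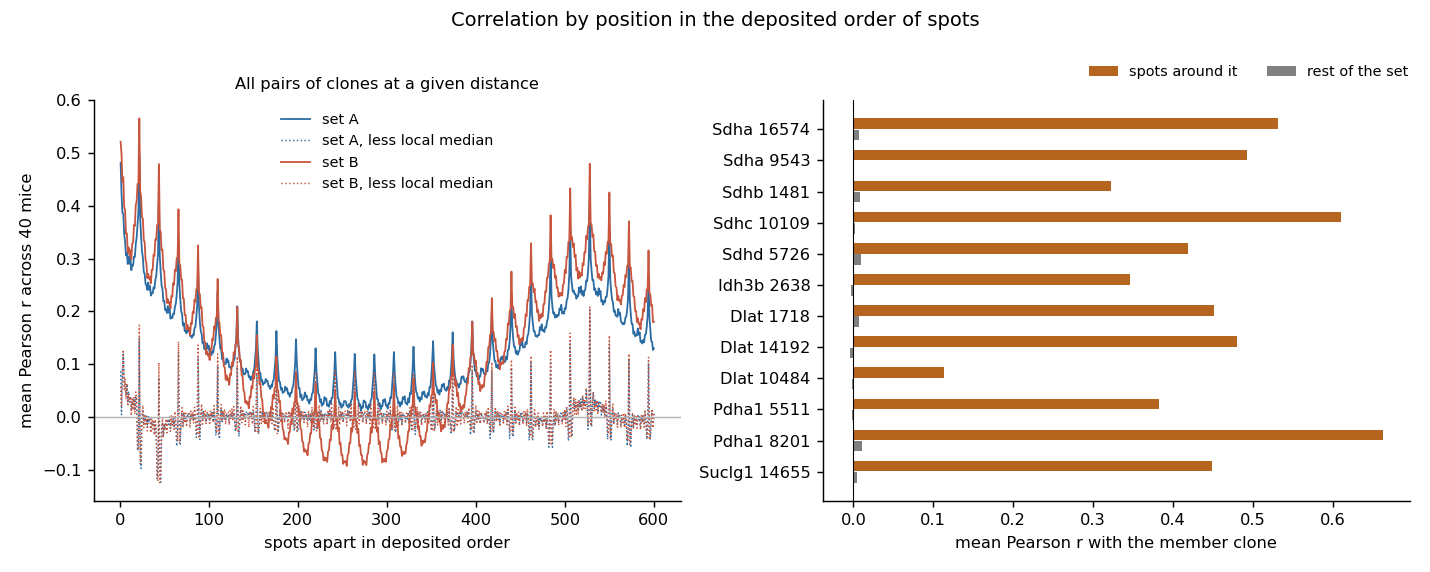
Left, mean Pearson r across 40 mice (y axis) between all pairs of clones a given number of spots apart in the deposited order (x axis), for set A (blue) and set B (red), before (solid) and after (dotted) local adjustment. Right, mean r of each of the 12 clones with the spots around it (brown) and with the rest of its set (grey). Peaks recur every 22 spots and again near 528, and all 12 brown bars exceed their grey ones.

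Sdha encodes the flavoprotein that holds the site where succinate is oxidised, and it had 2 clones, both in set B. At spot 16574 the lowest, median and highest values were 0.219, 0.487 and 0.687 at 17 to 44 days, 0.208, 0.564 and 0.614 at 169 to 194 days, 0.391, 0.507 and 0.671 at 476 to 499 days, and 0.361, 0.517 and 1.09 at 704 to 743 days. The ages overlapped almost fully, and the single value of 1.09, in an old male, stood above all others. At spot 9543, a dim clone at the 22.3 percentile of brightness, the medians were -0.715, -0.715, -0.672 and -0.747 in the same order of age. Its 40 values ran from -1.04 to -0.200, again with full overlap. The age differences of the 2 clones had opposite signs between 17 to 44 and 169 to 194 days, 0.0374 ± 0.0661 (SE) at spot 16574 and -0.0587 ± 0.0650 at spot 9543, each within its error of 0. The negative one rested on few mice: it was 0.00128 without 1 young male and 0.0195 without the 5 mice with outlying filters. Locally adjusted, both clones were above 0, at 0.0267 and 0.0228. For 704 to 743 minus 169 to 194 days the differences were 0.0728 ± 0.0661 at spot 16574 and -0.0004375 ± 0.0650 at spot 9543. The first was 0.189 ± 0.0935 in males and -0.0437 ± 0.0935 in females, and 0.0131 without 1 old male. Locally adjusted the 2 differences were 0.0665 and -0.0175.

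Sdhb encodes the iron-sulfur subunit that carries electrons from the flavin toward the membrane. Its clone at spot 1481 of set A had a lowest, median and highest value of -0.798, -0.149 and 0.0550 at 17 to 44 days, -0.176, -0.0376 and 0.164 at 169 to 194 days, -0.178, -0.0571 and 0.178 at 476 to 499 days, and -0.415, -0.175 and 0.110 at 704 to 743 days. The youngest and oldest mice lay lower in median than the 2 groups between them, and all 4 ranges overlapped. The difference of 169 to 194 minus 17 to 44 days was 0.143 ± 0.0718 (SE) array SDs, made of 0.286 ± 0.102 in males and -0.000800 ± 0.102 in females. Without 1 male of 17 to 44 days it was 0.0812, without the 5 mice with outlying filters 0.0632, and locally adjusted 0.0983 ± 0.0602. It was larger, 0.251, without the mice of 17 to 21 days. Within the youngest group the mean was -0.0482 ± 0.0976 (SD, n = 5) at 17 to 21 days and -0.328 ± 0.277 (SD, n = 5) at 33 to 44 days. The lower values of that group, down to -0.798, lay among its older mice, which were slightly more often male. The split by sex above is therefore partly mixed with age. The difference of 704 to 743 minus 169 to 194 days was -0.113 ± 0.0718, and -0.0624 after local adjustment.

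Sdhc and Sdhd encode the 2 membrane anchors that hold the complex in the inner membrane and form the ubiquinone site. Sdhc, at spot 10109 of set B and the 27.9 percentile of brightness, had medians of -0.537, -0.539, -0.505 and -0.502 from the youngest to the oldest group. Its age differences were -0.0292 ± 0.0723 for 169 to 194 minus 17 to 44 days and -0.0369 ± 0.0723 for 704 to 743 minus 169 to 194 days. The first was 0.0339 without 1 male of 17 to 44 days, 0.0311 without the mice with outlying filters and 0.0209 after local adjustment. The second was -0.00530 without 1 old female and -0.0574 after local adjustment. Its ranges overlapped fully, and the highest value of all, 0.00263, belonged to a mouse of the youngest group.

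Sdhd gave the largest age difference of the 12 clones. At spot 5726 of set A the lowest, median and highest values were -0.167, 0.00762 and 0.285 at 17 to 44 days and 0.0243, 0.307 and 0.501 at 169 to 194 days. At 476 to 499 days they were 0.0678, 0.305 and 0.420, and at 704 to 743 days -0.0220, 0.143 and 0.334. The youngest mice were the lowest in median, and their upper values reached into the range of each older group. The means were 0.0271 ± 0.157, 0.285 ± 0.134, 0.277 ± 0.124 and 0.167 ± 0.126 (SD, n = 10 each). The difference of 169 to 194 minus 17 to 44 days was 0.258 ± 0.0666 (SE), 0.288 in males and 0.227 in females, and above 0 in 10 of 10 pairs of mice of 1 sex and round. The 17 to 21 and 33 to 44 day mice had similar means, -0.00407 ± 0.155 and 0.0583 ± 0.171 (SD, n = 5 each). The spots around Sdhd moved by 0.115 in the same comparison, and the locally adjusted difference was 0.142 ± 0.0538. The difference of 704 to 743 minus 169 to 194 days, -0.118 ± 0.0666, was 0.00228 ± 0.0538 after local adjustment, since the spots around it differed by -0.120.

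Idh3b encodes a subunit of the NAD-dependent isocitrate dehydrogenase, the step that releases the first carbon dioxide of the cycle. Its clone at spot 2638 of set A was dim, at the 10.4 percentile of brightness. It lay near the edge of its inferred block, with 14 spots around it. The lowest, median and highest values were -1.32, -1.05 and -0.748 at 17 to 44 days, -1.19, -1.06 and -0.861 at 169 to 194 days, -1.52, -1.14 and -0.812 at 476 to 499 days, and -1.36, -1.19 and -1.12 at 704 to 743 days. The oldest group was the lowest in median and the tightest, with ranges that overlapped the others. The difference of 704 to 743 minus 169 to 194 days was -0.155 ± 0.0716, below 0 in 10 of 10 pairs of 1 sex and round, and -0.0934 ± 0.0541 after local adjustment. Within the youngest group, mice of 17 to 21 days averaged -1.18 ± 0.165 (SD, n = 5) and those of 33 to 44 days -0.947 ± 0.126 (SD, n = 5).

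Suclg1 encodes the alpha subunit of succinate-CoA ligase, which makes the succinate that complex II consumes. At spot 14655 of set B the lowest, median and highest values were -0.169, 0.107 and 0.259 at 17 to 44 days, -0.0806, 0.115 and 0.344 at 169 to 194 days, -0.0291, 0.128 and 0.322 at 476 to 499 days, and -0.264, 0.0171 and 0.195 at 704 to 743 days. The 3 younger groups lay close together and the oldest lower in median, with overlap. The difference of 704 to 743 minus 169 to 194 days was -0.109 ± 0.0602, of similar size in males (-0.0944) and females (-0.124). The locally adjusted difference was -0.105 ± 0.0301, and the spots around it differed by -0.00412.

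Dlat encodes the E2 core of pyruvate dehydrogenase, which hands the acetyl group to coenzyme A, and it had 3 clones. At spot 1718 of set A, the brightest of them, the medians were 0.477, 0.552, 0.544 and 0.417 from youngest to oldest, in a whole range of 0.0925 to 0.845. At spot 14192 of set B they were -1.12, -0.959, -1.11 and -1.02, and at spot 10484 of set B -1.18, -1.09, -1.04 and -1.09. The 2 clones of set B were dim, at the 13.5 and 12.9 percentiles of brightness, and their groups overlapped fully. All 3 clones had an estimate below 0 for 704 to 743 minus 169 to 194 days: -0.136 ± 0.0684, -0.135 ± 0.0937 and -0.0748 ± 0.117. Locally adjusted they were -0.0643, -0.0893 and -0.00548. At spot 14192 the value was -0.0516 without 1 old female and 0.0123 without the mice with outlying filters, and at spot 10484 it was -0.0227 without 1 male of 169 to 194 days. At spot 14192 the males gave 0.0316 ± 0.133 and the females -0.302 ± 0.133. At spot 10484 the mice of 17 to 21 days averaged -1.43 ± 0.230 and those of 33 to 44 days -0.987 ± 0.199 (SD, n = 5 each).

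Pdha1 encodes the catalytic E1 alpha subunit of pyruvate dehydrogenase, the one that the pyruvate dehydrogenase kinases switch off, and it had 2 clones in set A. At spot 5511 the medians were -0.0554, -0.180, -0.0284 and -0.0313 from youngest to oldest, and at spot 8201 -0.236, -0.208, -0.164 and -0.339. Values of all ages overlapped in both clones. The clones differed in sign in each age comparison: -0.123 ± 0.0645 and 0.0402 ± 0.0712 for 169 to 194 minus 17 to 44 days, and 0.118 ± 0.0645 and -0.0555 ± 0.0712 for 704 to 743 minus 169 to 194 days. Without single mice the estimate of 0.0402 ran from 0.00808 to 0.0724. Without the mice of 17 to 21 days it was -0.0565, the same sign as at spot 5511. After local adjustment the first pair was -0.0763 and 0.00755, and the last pair was 0.0195 ± 0.0538 and -0.0875 ± 0.0383.

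**Figure D2:**
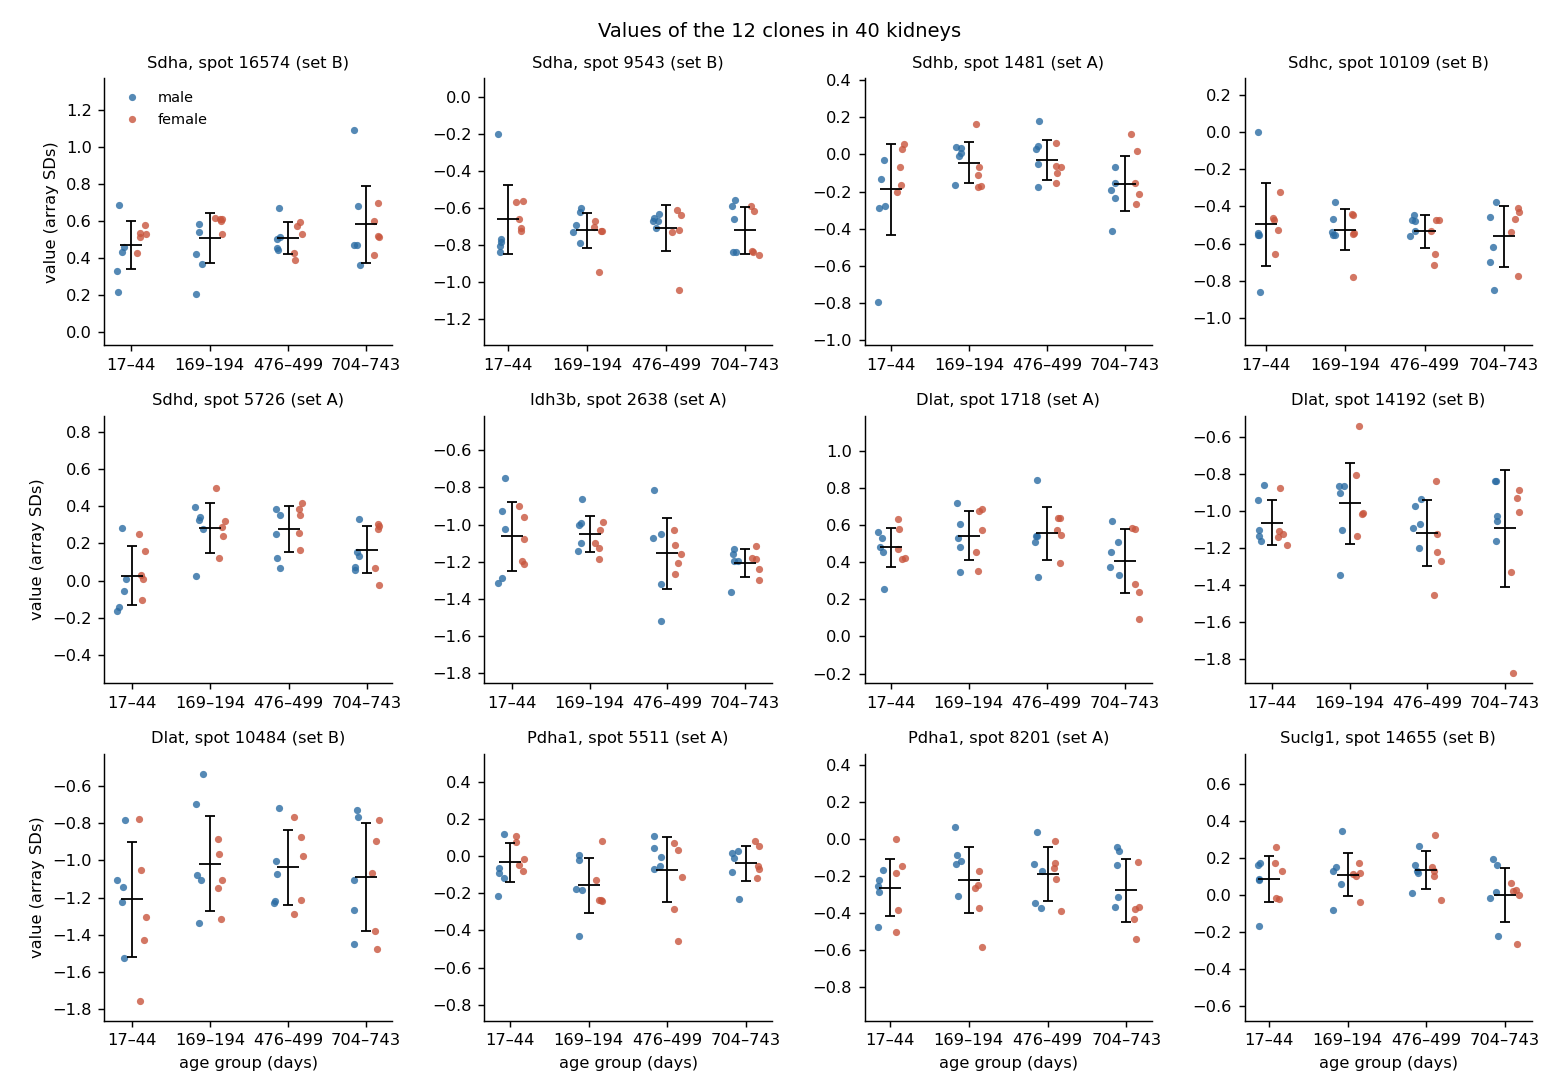
Each panel shows 1 clone, with its value in array SDs (y axis, the same span in every panel) in 4 age groups in days (x axis), for males (blue) and females (red). Black bars are the mean and SD of 10 mice. The Sdhd panel has its lowest mean, 0.0271, at 17 to 44 days, and in every panel the age groups overlap.

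Over the 12 clones, 10 had an estimate below 0 for 704 to 743 minus 169 to 194 days, with a median of -0.0919 array SDs, where 49.4% of all 16896 clones were below 0 and the median over all was 0.000988. For 169 to 194 minus 17 to 44 days 9 of 12 were above 0, with a median of 0.0388, where 51.0% of all clones were above 0 and their median was 0.00220. These counts describe values that chose the set and support nothing. Locally adjusted, 9 of 12 were below 0 in the first comparison (median -0.0599) and 11 of 12 above 0 in the second (median 0.0247). The slopes per year of age lay between -0.0819 ± 0.0328 for Idh3b and 0.0521 ± 0.0362 for Sdhd. The 2 comparisons share the mice of 169 to 194 days, so their opposite signs are not independent of each other.

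Markers of B and plasma cells were followed beside this, with 2 of 7 genes named on the filters. Their summed deviation from the mean over all mice ran from -0.467 to 0.223 at 169 to 194 days and from -0.0818 to 0.582 at 704 to 743 days. These ranges overlapped. The larger share came from Ighm, the heavy chain of immunoglobulin M, at 0.341 ± 0.0689 (SE), and Blnk gave 0.0730 ± 0.0772. The defining marker Cd79a was not among the named clones. The summed deviation of the proximal tubule clones also overlapped between these ages, at -0.414 to 0.241 and -0.348 to 0.397. Adrenal markers moved in the same direction as those of B and plasma cells. For 704 to 743 minus 169 to 194 days 3 of 4 clones were above 0, with a median of 0.130. Their summed deviation ran from -0.730 to 0.190 at 169 to 194 days (mean -0.178) and from -0.191 to 0.628 at 704 to 743 days (mean 0.218), again with overlap. For 169 to 194 minus 17 to 44 days, all 4 proximal tubule clones were above 0, with a median of 0.0415. Their summed deviation ran from -0.541 to 0.293 at 17 to 44 days, which overlapped that at 169 to 194 days. The part of cell composition in the age differences was not tested.

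None of the 12 clones was called between males and females. The lowest adjusted p was 0.982 (limma), and 18 of all 16896 clones were called, or 0.107%. At an unadjusted p under 0.05 the count was 0 of 12, where 757 clones, 4.48%, passed among all. Sdhd ran from -0.167 to 0.396 in males, with a median of 0.143, and from -0.104 to 0.501 in females, with a median of 0.252. The sexes overlapped over most of their ranges, and the male was the higher in 7 of 20 couples of 1 age group and round. The difference of male minus female was -0.0542, with a 95% interval of -0.149 to 0.0411. The largest of the 12 was 0.0842 ± 0.0503 at the Pdha1 clone of spot 8201, higher in the male in 13 of 20 couples, with an interval of -0.0176 to 0.186. The spots around that clone differed by 0.0683 and its locally adjusted value was 0.0159 ± 0.0271. Estimates were above 0 in 9 of 12 clones, with a median of 0.0108 against -0.00117 over all clones.

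The age group of 476 to 499 days was set against the mean of the other 3, the contrast with no correlation to the 2 that chose the set. None of the 12 clones was called, nor was any of the 16896 (0%), by limma, by ordinary least squares or with the round as a block. At an unadjusted p under 0.05, 1 of 12 clones passed, where 271 clones, 1.60%, passed among all. It was Sdhd, at 0.117 ± 0.0544 (adjusted p = 0.9999), above 0 in 8 of 10 sets of mice of 1 sex and round. Locally adjusted it was 0.0692 ± 0.0439. Sdhb followed, with a 95% interval of -0.0181 to 0.219. Estimates over the 12 ran from -0.0786 to 0.117, with 7 above 0 and a median of 0.0339 against 0.00173 over all clones.

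A sex difference that varies with age was called in none of the 12 clones and in none of all clones (0%). At an unadjusted p under 0.05 it reached 0 of 12 and 545 of all clones, 3.23%. The lowest unadjusted p of the 12 was that of Sdhb, 0.126. In the youngest group sex was partly mixed with age, so this test cannot fully separate them.

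**Figure D3:**
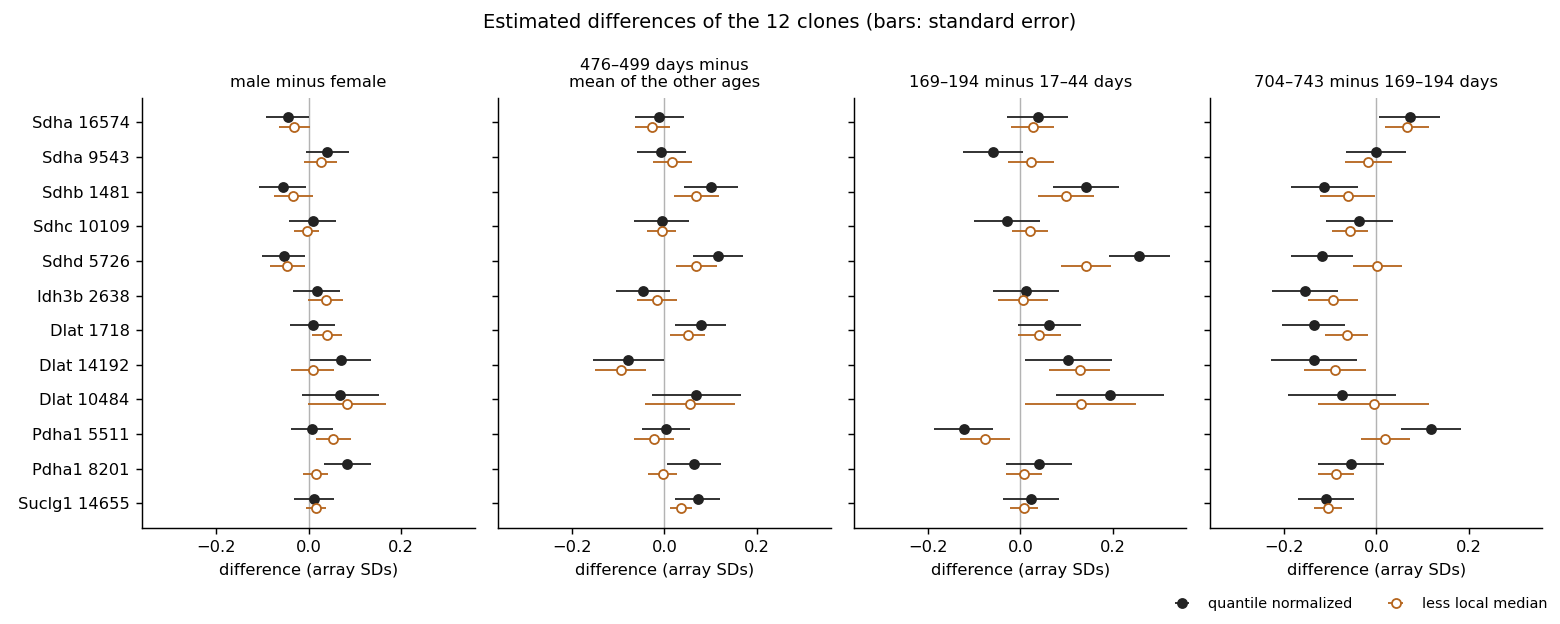
Estimated difference in array SDs (x axis) of each of the 12 clones (y axis, gene and spot) in 4 comparisons, with standard errors as bars. Filled points are quantile normalized values and open points are locally adjusted ones. In the comparison of 704 to 743 with 169 to 194 days the filled point of Sdhd sits at -0.118 and its open point at 0.00228.

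Clones of 1 gene were next compared across mice, after subtraction of round means, in 5 pairs. The Sdha clones correlated at r = -0.113 (rho = -0.0133) and the Pdha1 clones at r = -0.00455 (rho = 0.0310). The 3 pairs of Dlat clones gave r = 0.0415, -0.0936 and -0.160, with rho of 0.0874, -0.268 and -0.210. These values still hold the age differences that chose the set and carry no test. With the sex and age group means subtracted too, r lay between -0.251 and 0.105. None of the 5 passed a two-sided permutation test within rounds (lowest adjusted p = 0.526 for r and 0.341 for rho). Locally adjusted as well, r lay between -0.293 and 0.234 (lowest adjusted permutation p = 0.369). Without the 5 mice with outlying filters, 1 Dlat pair (spots 1718 and 14192) had r = -0.497 (adjusted permutation p = 0.0793). Agreement was low on the filters as a whole: over all 3453 same-gene pairs of 1858 genes the median r was 0.0234, with 54.2% above 0, and over the 192 pairs whose dimmer clone was in the brightest 25% it was 0.115. A gene of the set with several clones is therefore given clone by clone, and no mean over its clones was taken.

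**Figure D4:**
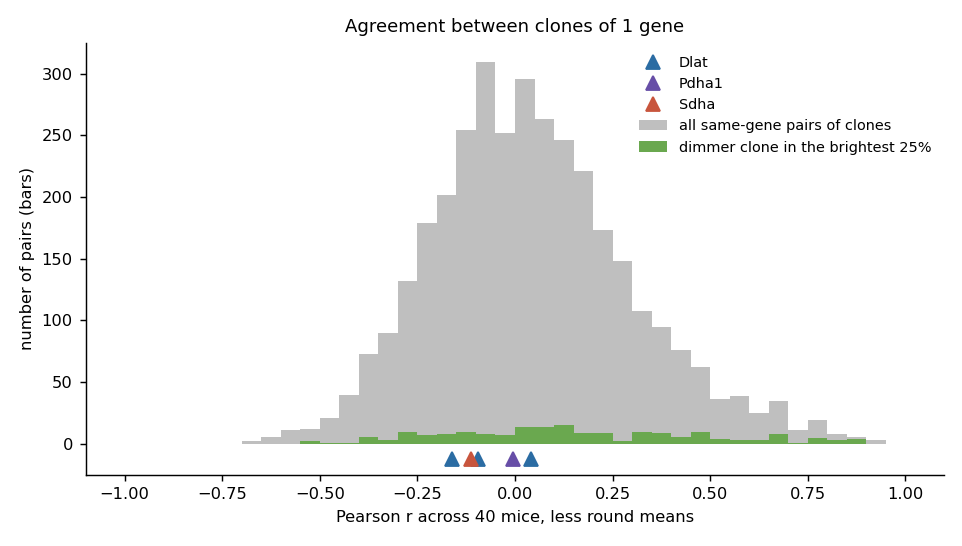
Number of pairs of clones of 1 gene (y axis) by their Pearson r across 40 mice (x axis), for all 3453 pairs (grey) and the 192 pairs whose dimmer clone is in the brightest 25% (green). Triangles mark the 5 pairs of Dlat, Pdha1 and Sdha clones, which fall between -0.160 and 0.0415, inside the bulk of all pairs.

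The 4 succinate dehydrogenase subunits were compared in the same way with the brightest clone of each, in 6 pairs. After subtraction of round means Sdhb and Sdhd correlated at r = 0.505 (rho = 0.467), or 0.430 without the 2 mice farthest from the median of Sdhb. Within the 5 rounds r was 0.817, 0.468, -0.0205, 0.0208 and 0.657. The Sdha clone of spot 16574 and Sdhd, which lie on different filters, correlated at r = 0.374 (rho = 0.421), 0.471 without the 2 farthest mice, and above 0 in 5 of 5 rounds. The other 4 pairs ran from -0.300 (Sdha and Sdhc) to 0.173 (Sdhb and Sdhc). These values describe mice of 4 ages and hold the age differences that chose the set, so the test was made with the sex and age group means subtracted too. None of the 6 pairs then passed. Sdha and Sdhd came nearest, at r = 0.463 (adjusted permutation p = 0.0580) and rho = 0.414 (0.167), and r was 0.339 without the 2 farthest mice. Sdhb and Sdhd gave r = 0.359 (adjusted permutation p = 0.125) and rho = 0.341 (0.190). With local adjustment added these pairs gave r = 0.00565 and 0.0462 (adjusted permutation p = 0.971 for each). Without the 5 mice with outlying filters they gave 0.473 and 0.314 (adjusted permutation p = 0.0626 and 0.465).

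**Figure D5:**
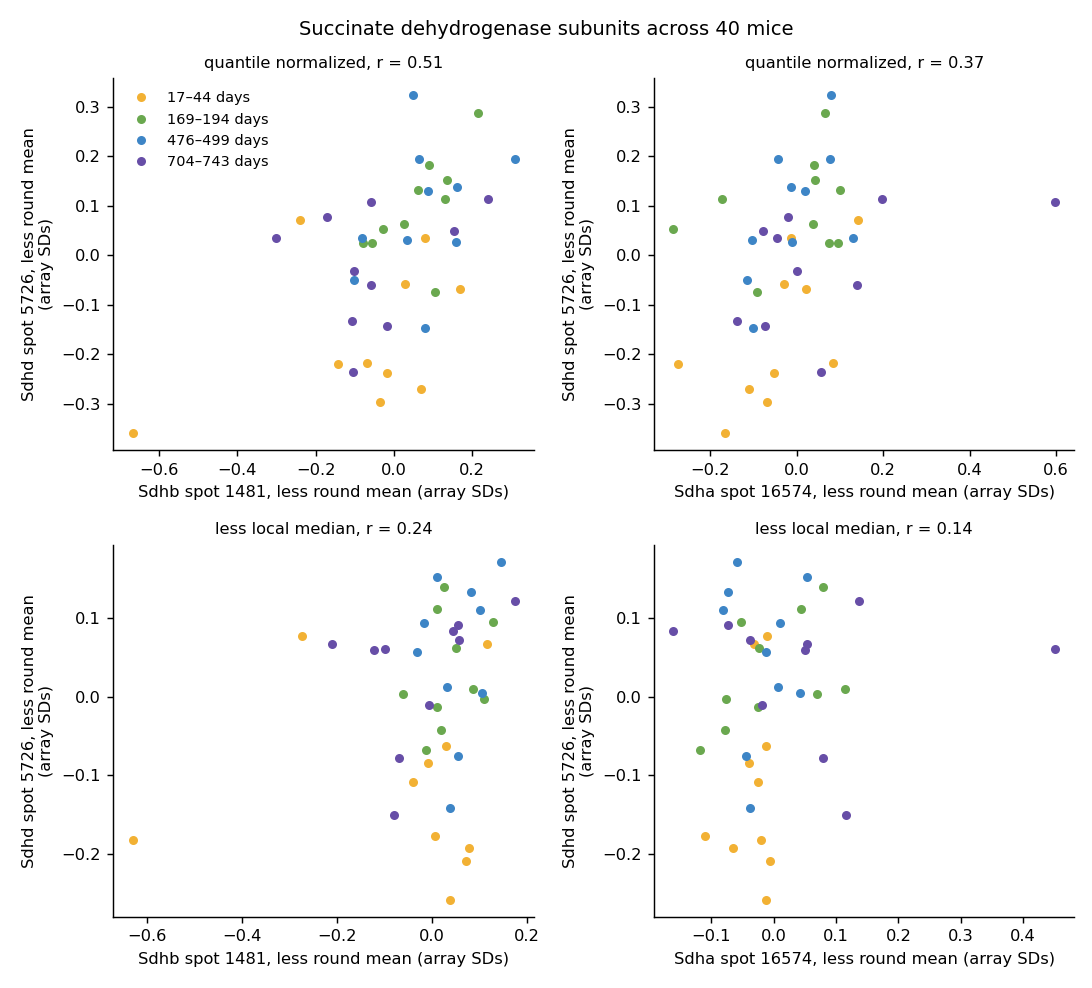
Values of 40 mice less their round mean, in array SDs, of Sdhd (y axes) against Sdhb (left, x axes) and against the Sdha clone of spot 16574 (right, x axes), coloured by age group. The upper panels use quantile normalized values (r of 0.505 and 0.374), the lower ones locally adjusted values (0.245 and 0.138), and 1 mouse lies far to the left in Sdhb and 1 far to the right in Sdha.

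Of all 66 pairs among the 12 clones the highest r was that of the dim Sdha clone of spot 9543 with Sdhc, 0.623 (rho = 0.420), which was 0.336 without the 2 farthest mice. These spots are 566 apart on set B, a distance at which all clones of the set averaged 0.250, and their locally adjusted r was 0.153. Sdhb and Dlat (spot 1718) correlated at 0.451 before and 0.461 after local adjustment. The lowest was Dlat (spot 1718) with Pdha1 (spot 5511), -0.482 before and -0.259 after. These values describe pairs picked from the 66 and carry no test.

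For the brightest clone of each gene, the 3 named clones of other genes with the most similar values were listed, 24 in all. Their r ran from 0.622 to 0.842 over 40 mice of shared filters, and 16 of the 24 lay within 50 spots of the clone they resembled. Sdhd was most like Hsp90aa1 (a cytosolic chaperone, 22 spots away, r = 0.842), Ftl1 (ferritin light chain, 0.821) and Pa2g4 (0.817). Suclg1 was most like Atp5c1, the gamma subunit of ATP synthase, at 0.820 and 26 spots away, then Rplp1 at 0.750 and Grhl1 at 0.747. Sdhb was most like Rnf187 (0.760, 5 spots away), Mgat2 (0.696) and Tmem164 (0.637). The best match of any named clone had a median r of 0.767 in set A and 0.803 in set B. Locally adjusted, the same 24 values of r ran from 0.0441 to 0.714 with a median of 0.372. Sdhd and Hsp90aa1 gave 0.613, and Suclg1 and Atp5c1 gave 0.560.

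Sdhc was most like Rbm42, Mns1 and Lcor (0.820, 0.820 and 0.818), and the Sdha clone of spot 16574 most like 4930430F08Rik, Gpr180 and Taf13 (0.784, 0.750 and 0.733). Idh3b was most like Gpatch2, Cyb5b and Prr5 (0.635, 0.627 and 0.622). Dlat was most like Mtch2, Wdr26 and Ttr (0.754, 0.747 and 0.712), and Pdha1 most like Tsr2, Zwint and Aff4 (0.720, 0.699 and 0.696). Mtch2 and Wdr26 lay 45 and 46 spots from the Dlat clone, and their locally adjusted r was 0.0441 and 0.0868.

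The rest of the pathway was read from 6 lists with 44 genes and 73 clones on the filters: other parts of pyruvate dehydrogenase and its kinases, other Krebs cycle enzymes, cytosolic and anaplerotic partners, complex II assembly factors, complex III subunits, and genes of mitochondrial content. Between males and females 1 of the 73 clones rose and 0 fell, where 0.107% of all clones were called. At an unadjusted p under 0.05, 7 of the 73 passed, where 4.48% of all clones did. The clone that rose in males was Me1 at spot 4063 (cytosolic malic enzyme, which makes NADPH from malate), by 0.310 ± 0.0662 (adjusted p = 0.0321). Its second clone, spot 13985, gave 0.186 ± 0.0488 (adjusted p = 0.256). The contrast of 476 to 499 days called 0 of 73 clones and 0% of all clones. At an unadjusted p under 0.05 it reached 0 of the 73, where 1.60% of all clones passed. Its lowest p values were those of Cs (citrate synthase, spot 6493, 0.114 ± 0.0569) and Uqcrc2 (a core subunit of complex III, 0.0859 ± 0.0438). A sex difference that varies with age was called in 0 of 73 and in 0% of all clones. Below an unadjusted p of 0.05 were 2 of the 73, where 3.23% of all clones were. The 2 were Cs at spot 63 (0.0113) and Glud1 at spot 16161 (0.0471).

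Over these 73 clones, 38 were below 0 and 35 above 0 for 704 to 743 minus 169 to 194 days, with a median of -0.00216. The lists differed in sign. The 20 clones of the 10 other Krebs cycle enzymes had 12 below 0 and a median of -0.0179, the 9 clones of the 6 complex III genes 7 below 0 and -0.0404, and the 15 clones of cytosolic and anaplerotic partners 9 below 0 and -0.0377. In the other direction, the 18 clones of mitochondrial content had 12 above 0 and a median of 0.0549, and the 9 clones of other pyruvate dehydrogenase parts 6 above 0 and 0.0404. The 2 clones of assembly factors had 1 above 0 and a median of 0.0203. For 169 to 194 minus 17 to 44 days, 45 of the 73 were above 0, with a median of 0.0190. Both age comparisons were in view when the set was chosen, and the lists were drawn up with earlier results known. These counts are therefore a description without a test. For the partners of Idh3b in isocitrate dehydrogenase, the 3 clones of Idh3a gave -0.0285, 0.0281 and 0.0496 for 704 to 743 minus 169 to 194 days, and the 2 clones of Idh3g -0.0182 and -0.0176, each within its standard error of 0.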

How the data were processed

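The authors deposited scores: each of the 80 columns had mean 0 and SD 1 over its 8448 spots. Image reading, background correction and the earlier scale: not given in the sources used here. Each set was quantile normalized on its own and fitted with limma 3.58.1 in R 4.3.3 (lmFit, eBayes) as 8 sex and age means over 40 mice. Benjamini-Hochberg adjustment ran over all 16896 clones, with calls made below an adjusted p of 0.05. The number of arrays limits the precision. Nothing states how mice relate beyond sex and age, so p-values measure the spread between them. Without a term for the round, that spread also holds differences between rounds.

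Correlations were tested on values with round, sex and age group means subtracted, by 100000 permutations within rounds with the means subtracted again after each (Python 3.11.15, numpy 2.4.6). Fits, permutations and local adjustment were tested on simulated data. The 8 genes, lists and naming rule were chosen with earlier results of these data known. Named are all clones of the 8 genes, the 3 clones most like each gene's brightest clone, and of the lists any called clone, the 2 lowest p values per tested comparison and defining markers. The platform table gave 1 symbol to 9663 clones, several to 436, and did not list 6797. The 12 clones' symbols matched RefSeq by gene ID. In 1 male the title and the description disagree on the mouse, and the labelled sex and age were used.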

Additional observations from a re-analysis of the deposited data

Results flagged for a closer look

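In 9 of 96 groups of 5 mice (12 clones, 8 sex and age groups), 1 mouse lay apart from the other 4 by Dixon's 95% criterion, where chance gives about 1 in 20 groups. For Sdha at spot 16574, 1 female of 169 to 194 days had 0.531, with the others at 0.599 to 0.614. For Sdha at spot 9543 the values were -0.946 in that same female, -1.04 in a female of 476 to 499 days and -0.200 in a male of 17 to 44 days. Sdhb had -0.164 in a male of 169 to 194 days, and Idh3b -1.36 in a male of 704 to 743 days. Dlat at spot 14192 had -0.878 in a female of 17 to 44 days. Suclg1 had -0.264 in a female of 704 to 743 days and -0.169 in the same young male as Sdha. The filters of this young male, of the female of 169 to 194 days and of the old female with the low Suclg1 value were among those of the 5 mice that stood apart as a whole, which touches 5 of the 9 values.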

How the results depend on the processing

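Calls among the 12 clones stayed at 0 for the sexes, for 476 to 499 days and for a sex difference that varies with age, under every alternative run, among them local adjustment. The lowest adjusted p that any of them gave was 0.646 for sex. Among all clones, male against female called 11 without the mice of 17 to 21 days and 38 after local adjustment, against 18. Without single mice it called between 16 and 20. With the round as a replicate block the calls were 19 for sex and 0 for the other 2 tests. At an unadjusted p under 0.05 in limma, the block gave 1045 clones for sex, against 757 without it, and 0 of the 12. For 476 to 499 days it gave 458 against 271, and 1 of the 12. For a sex difference that varies with age it gave 1120 against 545, and 0 of the 12. Mice of 1 round correlated in their deviations at a mean of 0.145 (set A) and 0.197 (set B), against -0.0612 and -0.0702 between rounds, and 23 and 26 of 40 mice correlated best, on average, with the mice of their own round. Only 74 and 94 of 140 pairs were above 0.1, and no label says what a round is, so the fit without the block was kept as the reported one. Correlations used round-centred values.

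Of the 8 clones left without the dimmest 25%, 6 were below 0 for 704 to 743 minus 169 to 194 days, against 10 of 12. For the 6 pairs of subunits, values with the age differences left in carry no test, and passes among them are not counted. With sex and age group means subtracted, 0 of the 6 passed. This held alone, with local adjustment added, and without the mice with outlying arrays. Uncalled estimates changed sign in 29 of 572 recomputed values for sex, 29 of 572 for 476 to 499 days, and 20 and 14 for the 2 age differences. The causes were not tested. The 4 dim clones (Idh3b, 2 of Dlat and Sdha at spot 9543) limit what these filters can show.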

Other observations

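Markers of tissues next to the kidney were few on the filters. Of 5 adrenal markers 3 were named, with 4 clones, and 1 of these was called between the sexes: Hsd3b1 at spot 4261, a steroid-making enzyme, was lower in males, with a male minus female difference of -0.280 ± 0.0535 array SDs (limma, adjusted p = 0.00788). Its second clone, at spot 2966, gave -0.176 ± 0.0541 (adjusted p = 0.760). Of the 4 adrenal clones, 2 were below 0 and 2 above 0 for male minus female. Among all clones 0.107% were called between the sexes. Liver markers gave 0 calls in 3 clones, skeletal muscle 0 in 1, podocyte and endothelial markers 0 in 4, and the loop of Henle and collecting duct 0 in 4 and 0 in 1. None of these reached an unadjusted p under 0.05 between the sexes (0 clones). No adipocyte marker was named on the filters (0 of 7).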
